A study of Homo sapiens with 12 samples.

Results

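The senescence response of fibroblasts carrying a hairpin against FBXO22 was read from the authors' deposited table that set 3 young against 3 senescent libraries labelled shFbxo22. Its members were all rows whose gene symbol was not a date, 55737 of 55765 rows, and they came from 6 of the 12 libraries of the study. An adjusted p-value was listed for 18758 of these genes, which are called the genes tested below, and the other 36979 entered no count.

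The cells were HCA2 (also MJ90), an established human skin fibroblast line, kept in DMEM with fetal bovine serum and given a hairpin that doxycycline switches on. The shFbxo22 hairpin is directed against FBXO22 and the shLuc hairpin against luciferase, a firefly enzyme with no human counterpart, so that shLuc served as the control. Young cells were at low passage, and senescent cells had received 10 Gy of ionizing radiation. Each of the 4 groups (shLuc young, shLuc senescent, shFbxo22 young and shFbxo22 senescent) had 3 libraries. One cell line and one FBXO22 hairpin sequence name stand in the labels, and whether the 3 libraries of each group stem from different cultures is not said, so the p-values speak only of variation among these libraries, some or all of which may be technical.

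All fold changes below are senescent over young on the log2 scale with the authors' standard error, and all adjusted p-values of single genes are those of the authors' deposited table (a Wald test, adjusted over all genes tested). The deposited sign was turned, since base means shared between the 4 tables met only when this table was read as young over senescent. A gene is called higher or lower where its adjusted p was under 0.05. The tables hold no value for each library, so levels are given as the mean normalized count of each group of 3 libraries, solved from the base means and fold changes of the 4 deposited tables. These means carry no error of their own and are not divided by transcript length, so they compare groups for one gene and not genes with each other. The sum of base means was 21883500 normalized counts, and the number of reads behind each library is unknown.

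Cellular senescence is a lasting arrest of the cell cycle that follows DNA damage, telomere loss or oncogene activity. The transcription factor p53 is stabilised by DNA damage and raises CDKN1A, whose product p21 blocks cyclin-dependent kinases, keeps RB family proteins active and lets the repressor complexes DREAM and RB-E2F silence genes of replication and mitosis. MDM2, itself a p53 target, marks p53 for degradation and closes a feedback loop. FBXO22 is the substrate-binding subunit of an SCF ubiquitin ligase, and complexes of p53 with the demethylase KDM4A are among its reported substrates in senescent cells.

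The gene aimed at by the hairpin was examined first. FBXO22 had a mean normalized count of 439 in shLuc young, 369.9 in shLuc senescent, 248 in shFbxo22 young and 751 in shFbxo22 senescent libraries. The lowest group was therefore shFbxo22 young and the highest was shFbxo22 senescent, which goes against its label. In the authors' deposited table FBXO22 rose by 1.53 ± 0.13 (adjusted p = 1.06e-28), a ratio of group means of 3.03. With shLuc the same gene was at -0.25 ± 0.14, not called (adjusted p = 0.16). The senescent group is therefore called the libraries labelled shFbxo22 senescent, and every direction below rests on that label. Whether groups were exchanged before deposit was not tested. Of 14 tested genes for the FBXO22 ligase and its reported substrates, 3 rose, 2 fell and 9 did not pass. The other members that rose were the cyclin CCND1 at 0.72 ± 0.10 and the demethylase KDM4B at 0.69 ± 0.15, and the transcription factor KLF4 was among those that fell, at -0.51 ± 0.11, in the authors' deposited table. The ligase subunits SKP1 at 0.14 ± 0.10 and CUL1 at -0.036 ± 0.10 did not pass.

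Of 18758 genes tested, 1530 were higher (8.16%) and 1795 were lower (9.57%) in the libraries labelled shFbxo22 senescent, and these 2 shares are the background for every list below. Over all genes tested the median log2 fold change was 0.0014. An absolute log2 fold change of at least 1 was reached by 332 of the higher and 406 of the lower genes, of at least 2 by 65 and 128, and of at least 3 by 16 and 44. The far end of the distribution was therefore filled mainly by genes that fell. Calls rose with level: 2.35% of genes with a base mean under 30 were higher and 1.90% lower, against 13.6% and 17.3% of those with a base mean of 3000 or more. The median standard error fell from 0.33 to 0.099 between these 2 bands, so weakly expressed genes could pass only with large changes. Protein-coding genes made up 1346 of the higher and 1696 of the lower calls.

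**Figure D1:**
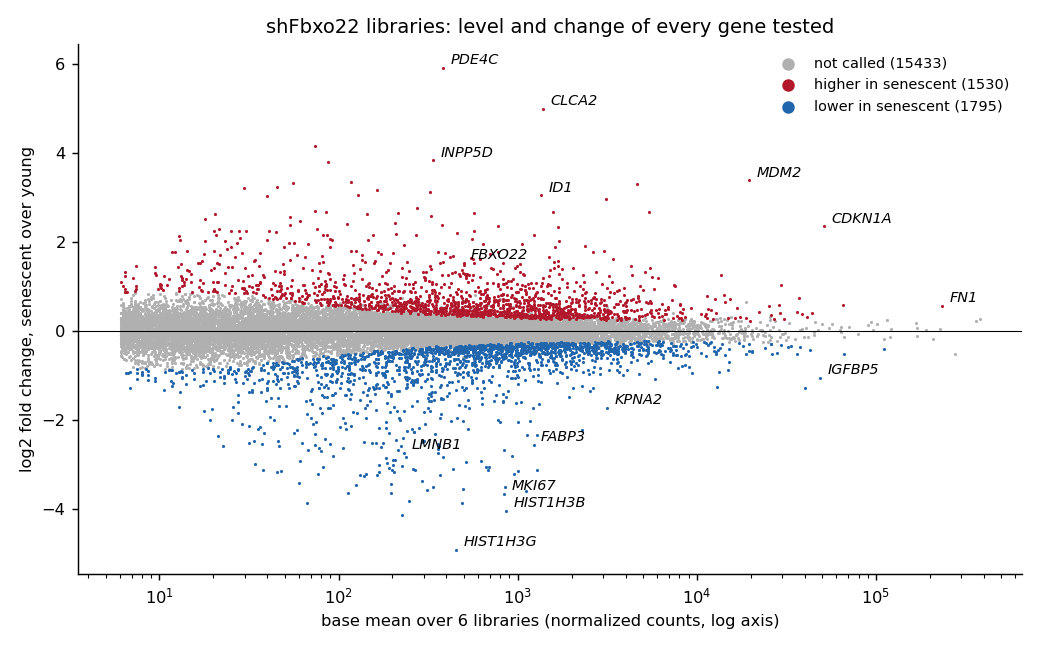
Log2 fold change (senescent over young, vertical axis) against base mean (mean normalized count over 6 libraries, log axis) for the 18758 genes tested in shFbxo22 libraries; red points were called higher (1530), blue points lower (1795). The largest rises, PDE4C and CLCA2, and the largest falls, such as HIST1H3G, sit at middle levels, while MDM2 and CDKN1A combine a large rise with a high level.

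The p53 pathway came first among the genes that rose, and it was described by the role of its targets. Of 14 tested arrest targets 12 rose and none fell (median 0.86). CDKN1A went from 16296 to 86266 mean normalized counts in shFbxo22 libraries, a ratio of 5.29, against from 692 to 3039.9 in shLuc libraries. All 4 groups were thus ordered, with both shFbxo22 groups above both shLuc groups. The log2 fold change of CDKN1A in the authors' deposited table was 2.34 ± 0.10 (adjusted p = 4.12e-116). BTG2, an antiproliferative regulator of mRNA decay, rose by 1.94 ± 0.13, the secreted stress cytokine GDF15 by 1.54 ± 0.26, the RNA-binding protein gene ZMAT3 by 1.46 ± 0.11 and the stress kinase gene PLK3 by 1.08 ± 0.12. KITLG, the ligand of the receptor KIT, rose by 1.23 ± 0.12. GADD45B at 0.039 ± 0.12 and SFN at 0.67 ± 0.33 were the members that did not pass.

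Feedback genes of p53 showed 8 rises and no fall among 14 tested (median 0.67). MDM2 went from 3194 to 36066 mean normalized counts with shFbxo22 and from 794 to 993 with shLuc. Its value in the authors' deposited table was 3.38 ± 0.12 (adjusted p = 1.54e-180). The MDM2 level of the libraries labelled shFbxo22 senescent thus lay far above the other 3 groups, while that of the libraries labelled shFbxo22 young already lay above both shLuc groups. TP53INP1, a stress-induced cofactor of p53, rose by 1.91 ± 0.12, the phosphatase PPM1D, which turns the damage response off, by 1.42 ± 0.13, and CCNG1 by 0.92 ± 0.11. E2F7, a repressor of E2F target genes that p53 also induces, rose by 2.16 ± 0.11 (adjusted p = 2.63e-85), while MDM4, the partner of MDM2, was at -0.042 ± 0.13 and USP28 at -0.31 ± 0.12 without passing the test.

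Death targets rose in 19 of 26 cases with no fall (median 0.86). TP53I3, an oxidoreductase, went from 826 to 8485 mean normalized counts and was at 3.29 ± 0.093 in the authors' deposited table (adjusted p = 3.02e-268). Its shLuc means were 425 in young and 350.2 in senescent libraries, so the libraries labelled shFbxo22 senescent stood apart. The TRAIL receptors and decoys of the TNFRSF10 group rose: TNFRSF10A by 1.36 ± 0.16, TNFRSF10B by 1.32 ± 0.087, TNFRSF10C by 2.35 ± 0.12 and TNFRSF10D by 1.42 ± 0.10. TNFRSF11B, whose soluble product also binds TRAIL, was lower at -0.30 ± 0.094. The death receptor FAS rose by 1.28 ± 0.12 and PIDD, which encodes a death-domain scaffold protein, by 2.24 ± 0.17. TRIAP1, a mitochondrial lipid-transfer factor that limits apoptosis, rose by 1.46 ± 0.12. Of the BCL2 family, 6 of 23 tested members rose and 2 fell, with the killers BBC3 at 0.66 ± 0.18, PMAIP1 at 0.64 ± 0.16 and BAK1 at 0.57 ± 0.14, and the protector BCL2L1 at 0.68 ± 0.10. BAX at 0.24 ± 0.13 and the protector MCL1 at 0.12 ± 0.10 did not pass.

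DNA repair targets of p53 split: 7 of 14 rose and 2 fell (median 0.54). RRM2B, a ribonucleotide reductase subunit for repair, rose by 1.65 ± 0.13, the lesion-bypass polymerase POLH by 1.40 ± 0.10, and the damage sensor DDB2 by 0.88 ± 0.10. PCNA, the sliding clamp of replication and repair, rose by 1.10 ± 0.094, from 1468 to 3214 mean normalized counts, where shLuc libraries went from 2194 to 705. LIG1, the ligase that joins Okazaki fragments, rose by 0.95 ± 0.12 in the authors' deposited table. PARP1 at -0.68 ± 0.094 and FANCC at -0.80 ± 0.18 fell. Metabolic targets had 22 higher and 2 lower members of 31 tested (median 0.99). FDXR, the mitochondrial ferredoxin reductase, rose by 2.33 ± 0.15, the fructose bisphosphatase C12orf5 (TIGAR) by 1.94 ± 0.11, the ceramidase ACER2 by 3.11 ± 0.16 and the lipid transporter ABCA12 by 3.32 ± 0.29. GLS2, a mitochondrial glutaminase, rose by 1.98 ± 0.31 from a low base mean of 27.3. The lipin LPIN1 at -0.79 ± 0.093 and the carnitine palmitoyltransferase CPT1A at -0.34 ± 0.11 were the metabolic members that fell.

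**Figure D2:**
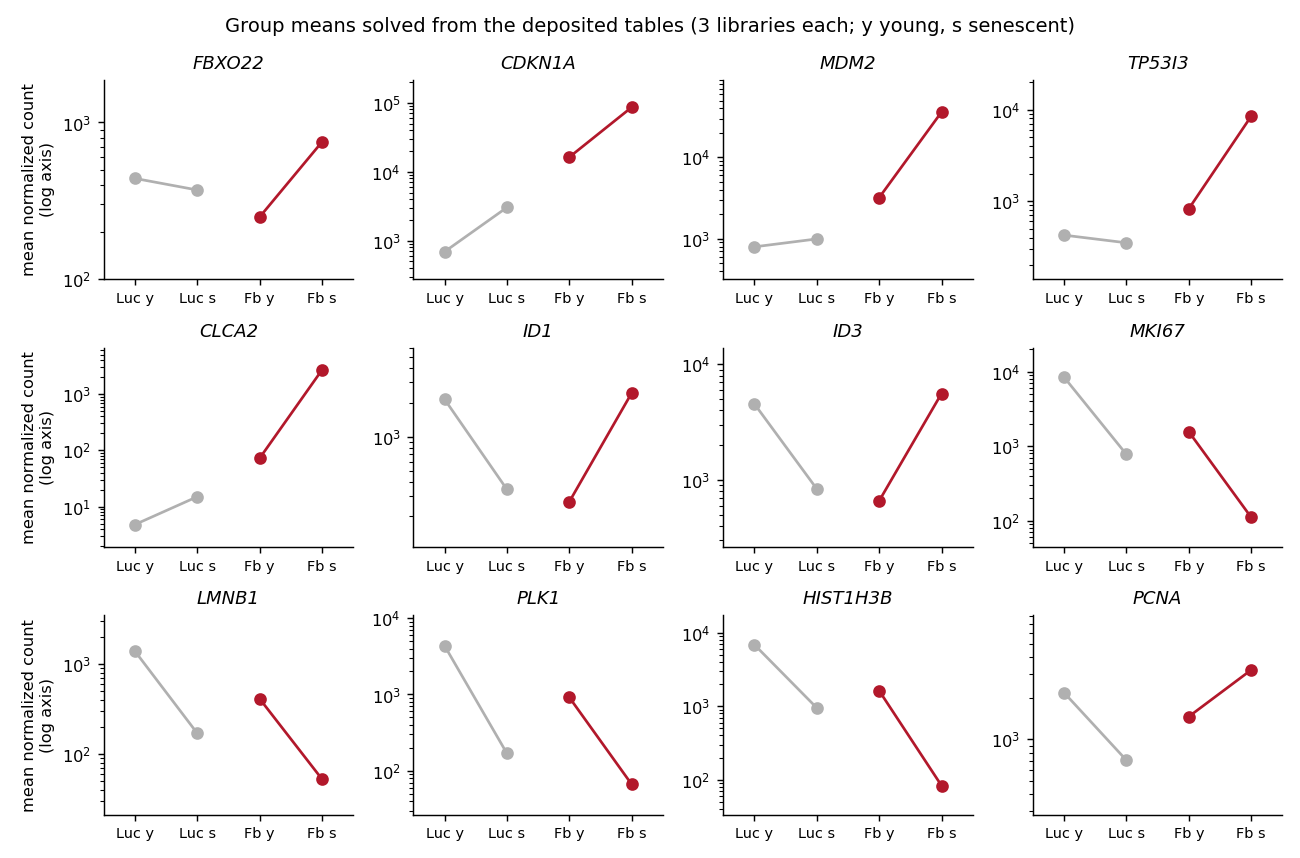
Mean normalized count (log axis, its range set for each gene) in the 4 groups of 3 libraries for 12 genes; grey points are shLuc, red points shFbxo22, young left and senescent right of each line, and the means solved from the deposited tables carry no error bars. CDKN1A, MDM2, TP53I3 and CLCA2 are highest in the libraries labelled shFbxo22 senescent, ID1, ID3 and PCNA go in opposite directions with the 2 hairpins, and MKI67, LMNB1, PLK1 and HIST1H3B step down with both.

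The largest rises lay mostly outside these lists. Among called genes whose base mean was 100 or more, PDE4C, a phosphodiesterase that breaks down cAMP, led with 5.91 ± 0.24 in the authors' deposited table (base mean 385, adjusted p = 1.15e-132). CLCA2, a membrane-anchored regulator of calcium-activated chloride channels and a known p53 target, followed with 4.98 ± 0.13. Its group means were 4.78 in shLuc young, 15 in shLuc senescent, 72.2 in shFbxo22 young and 2687 in shFbxo22 senescent libraries. INPP5D, an inositol phosphatase best known from blood cells, was at 3.83 ± 0.18, while the leukocyte marker PTPRC did not pass at 0.18 ± 0.33 and a base mean of 13.4. KANK4, a cortical adaptor protein, rose by 3.35 ± 0.23, the riboflavin transporter SLC52A1 by 3.04 ± 0.23, the actin regulator CYFIP2 by 2.67 ± 0.10 and the small GTPase RRAD by 2.65 ± 0.19. CYFIP2 went from 407 to 2737 mean normalized counts and PLTP, a phospholipid transfer protein, from 1373 to 9473. HSPA4L, an HSP110-type chaperone, rose by 2.65 ± 0.14, from 144 to 999.9. The tetraspanin TSPAN11 rose by 2.76 ± 0.17, and SAMD11, WDR63, FAM84B and RP11-597D13.9 lay between 2.40 and 2.62.

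Mitotic genes made up most of the largest falls. Of 47 tested kinetochore and spindle checkpoint genes 36 fell and none rose (median -1.67), and of 37 condensin, cohesin and cytokinesis genes 32 fell and none rose (median -2.26). MKI67, the proliferation marker that coats mitotic chromosomes, went from 1561 to 110.3 mean normalized counts with shFbxo22 and from 8462 to 775 with shLuc. Libraries labelled shFbxo22 young thus already had fewer MKI67 counts than young shLuc libraries, and those labelled shFbxo22 senescent had the fewest of the 4 groups. CDC20, the activator of the anaphase-promoting complex, was at -3.88 ± 0.16 in the authors' deposited table (adjusted p = 2.15e-121), from 927 to 52.3 mean normalized counts. PLK1, the mitotic polo kinase, was at -3.57 ± 0.16, from 914 to 66.1, and the centromere loader HJURP at -4.15 ± 0.21, from 432 to 16.5. The kinesins KIFC1 at -3.83 ± 0.20 and KIF20A at -3.61 ± 0.13, the chromosomal passenger CDCA8 at -3.58 ± 0.18 and the abscission factor CEP55 at -3.52 ± 0.17 fell to a like degree. NEK2, PBK, SHCBP1, GTSE1, KIF2C and TTK lay between -3.46 and -3.24. Members that did not pass included subunits with roles outside mitosis, such as the cohesin genes STAG1 at -0.21 ± 0.11, STAG2 at 0.26 ± 0.12 and SMC3 at -0.22 ± 0.11. Kinesins as a family fell in 16 of 36 cases, while the transport kinesins KIF5B at 0.20 ± 0.12 and KIF1C at 0.15 ± 0.10 did not pass.

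Promoter sequence was set beside these falls, since mitotic genes are known to carry a cell cycle homology region (CHR), the element bound by the DREAM complex, and CCAAT boxes, bound by NF-Y. RefSeq promoter windows (GRCh38.p14, 250 bases before to 50 after a start) were found for 11077 of the 18758 genes tested. Shares below are of genes, and a gene with several listed starts counted if any of its windows held the letters. A CHR, searched as TTTGAA or TTCGAA on both strands, lay in 15.9% of all these genes. It lay in 22.3% of the genes called lower and in 16.3% of those called higher. Among 86 genes other than histones with a log2 fold change of -2 or less the share was 58.1%, for kinetochore genes 59.5% and for condensin and cytokinesis genes 80.6%. A CCAAT box, searched as CCAAT on both strands, lay in 43.2% of all genes with a window and in 73.3% of the 86 steep fallers. E2F sites were searched as TTTCCCGC, TTTGGCGC, TTTCGCGC or TTTGCCGC on both strands. They lay in 6.56% of all genes with a window, 49.0% of replication genes and 8.11% of kinetochore genes. Kinetochore and replication promoters thus differed in which of these letters they held, and a match is only a match of letters. The 150 bases before the start of 4 of the steepest fallers are shown because each holds a CHR close to its start; capitals mark CHR and CCAAT matches, which may share a base, in the gene's own direction.

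PLK1 (chr16:23678739-23678888, strand +): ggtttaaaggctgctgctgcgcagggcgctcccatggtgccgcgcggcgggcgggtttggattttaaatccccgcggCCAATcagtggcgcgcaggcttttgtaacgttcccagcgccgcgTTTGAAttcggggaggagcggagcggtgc
CDC20 (chr1:43358831-43358980, strand +): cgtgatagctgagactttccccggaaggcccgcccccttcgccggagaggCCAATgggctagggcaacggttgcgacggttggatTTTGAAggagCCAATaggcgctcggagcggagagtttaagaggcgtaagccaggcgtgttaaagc
MKI67 (chr10:128126424-128126573, strand −): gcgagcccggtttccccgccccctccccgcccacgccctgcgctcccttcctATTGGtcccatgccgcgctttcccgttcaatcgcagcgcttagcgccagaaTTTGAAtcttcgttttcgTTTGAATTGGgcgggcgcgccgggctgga
CDCA8 (chr1:37692366-37692515, strand +): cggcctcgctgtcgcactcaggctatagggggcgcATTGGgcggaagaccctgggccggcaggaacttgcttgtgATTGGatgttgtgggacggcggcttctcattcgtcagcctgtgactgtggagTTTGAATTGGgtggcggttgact

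In these windows the CHR nearest to the start began 29 bases before it in PLK1, 65 in CDC20, 29 in MKI67 and 23 in CDCA8. In MKI67 and CDCA8 it ran into a CCAAT box on the other strand. KIF2C, which was at -3.24 ± 0.16 in the authors' deposited table, held neither a CHR nor a CCAAT box in the 150 bases before its listed start. The steep fallers KIFC1, KIF20A, NEK2 and SHCBP1 held CCAAT matches but no CHR there. CHR letters, on either strand, also lay there in CLCA2, KANK4, ID1, ID3 and WDR63, which rose. These letters were therefore not particular to the genes that fell.

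Replication genes fell in 44 of 58 cases (median -0.99), and PCNA and LIG1, described above, were the 2 that rose. RRM2, the S-phase subunit of ribonucleotide reductase, was at -2.94 ± 0.14, the origin-licensing factor CDC6 at -2.86 ± 0.19, MCM10 at -2.71 ± 0.25 and CDC45 at -2.57 ± 0.25 in the authors' deposited table. TYMS, which makes thymidylate, was at 0.15 ± 0.11 and the large reductase subunit RRM1 at -0.18 ± 0.10, and neither passed. Group means of TYMS were 1408 in the libraries labelled shFbxo22 young and 1576 in those labelled shFbxo22 senescent, while shLuc libraries went from 2554 to 364. Of 51 checkpoint and recombination genes 25 fell and 3 rose (median -0.39). The recombination motor RAD54L was at -3.07 ± 0.25, FANCD2 at -2.05 ± 0.18 and the nuclease EXO1 at -2.09 ± 0.21, whereas the end-joining genes XRCC5 at -0.094 ± 0.11 and PRKDC at -0.10 ± 0.11 did not pass. The 3 that rose were RAD51C at 1.05 ± 0.13, the end-joining ligase LIG4 at 0.50 ± 0.15 and the damage kinase ATM at 0.35 ± 0.13.

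The regulators that drive these genes moved in both directions. The activating E2F1 was lower at -2.16 ± 0.22, as were E2F2 at -3.13 ± 0.31 (base mean 37.9), MYBL2 at -2.59 ± 0.18 and FOXM1 at -1.75 ± 0.11 in the authors' deposited table, while the third activating gene E2F3 rose by 0.35 ± 0.13, and the repressor E2F7 rose and its relative E2F8 fell by 2.59. In all 8 of 22 E2F, RB and DREAM genes fell and 4 rose, the latter being E2F3, E2F7, RB1 at 0.51 ± 0.15 and MYBL1 at 0.78 ± 0.15. Cyclins and their kinases had 18 lower and 5 higher members of 40 tested. CDK1 was at -3.28 ± 0.23, CCNB1 at -2.68 ± 0.12 and CCNE2 at -2.21 ± 0.30, but the other cyclin E gene CCNE1 at 0.077 ± 0.18 did not pass. The D-type cyclins CCND1 at 0.72 ± 0.10 and CCND2 at 0.77 ± 0.17 rose. Of the other CDK inhibitor genes, named after their values were seen, CDKN1B at -0.48 ± 0.12, CDKN1C at -0.65 ± 0.22, CDKN2A at -0.44 ± 0.15 and CDKN2C at -1.30 ± 0.16 were lower, and CDKN2B at 0.00096 ± 0.13 and CDKN2D at -0.47 ± 0.21 did not pass.

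Replication-dependent histones, which are made in S phase from clustered genes, fell in 55 of 65 tested cases with no rise (median -1.43). By class, 13 of 13 H3 genes fell (median -2.82), 17 of 19 H2B genes (-1.22), 10 of 14 H2A genes (-1.55), 12 of 14 H4 genes (-0.98) and 3 of 5 H1 genes (-1.68). HIST1H3G had the largest fall of any called gene with a base mean of at least 100, from 885 to 19.6 mean normalized counts, at -4.93 ± 0.20 in the authors' deposited table (adjusted p = 4.04e-133). HIST1H3B went from 1631 to 83.3, the linker histone gene HIST1H1B from 1570.3 to 121 and HIST1H2AJ from 369.7 to 20.1. Histone genes that did not pass ranged in base mean from 15.6 for HIST1H2AM upwards, and those with the largest base means were HIST1H1C at -0.33 ± 0.13 (base mean 3966), HIST1H1E at -0.087 ± 0.12 (base mean 1903) and HIST1H2AC at -0.011 ± 0.11 (base mean 2227). Clustered histone genes are near-identical copies, and how reads shared between them were counted is not given in the sources used here, so values of single copies are uncertain. The list of variant and replacement histones, which also holds the histone mRNA factors SLBP and LSM10, had 6 lower members of 18 tested. Among these were the damage-marking H2AFX at -1.53 ± 0.16, H2AFZ at -1.28 ± 0.12 and the centromeric CENPA at -2.52 ± 0.27. H2AFY, which encodes macroH2A, rose by 0.29 ± 0.10. H3F3B, which encodes replacement histone H3.3, was at -0.11 ± 0.12 and the histone mRNA binder SLBP at -0.22 ± 0.12, neither passing.

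The promoters of the pair of H3 genes with the largest falls are shown for comparison with the mitotic ones; capitals mark CHR, CCAAT and TATA matches (TATAAA on both strands) in the 150 bases before the start.

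HIST1H3B (chr6:26032100-26032249, strand −): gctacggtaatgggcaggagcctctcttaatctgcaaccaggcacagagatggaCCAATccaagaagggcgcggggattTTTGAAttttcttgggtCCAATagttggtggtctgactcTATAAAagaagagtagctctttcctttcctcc
HIST1H3G (chr6:26271414-26271563, strand −): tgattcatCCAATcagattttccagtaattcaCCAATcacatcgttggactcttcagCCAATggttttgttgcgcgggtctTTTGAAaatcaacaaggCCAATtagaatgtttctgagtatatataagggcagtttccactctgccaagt

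A TATA box was found for 40 of 58 clustered histone genes with a window (69.0%), against 8.92% of all such genes and 0 of 37 kinetochore genes. A CCAAT box was found for 84.5% of these histone genes. In HIST1H3B the TATA box began 32 bases before the start. In HIST1H3G the letters TATAAA were not in the 150 bases shown, which hold the near match TATAAG. Such near matches were not counted, so HIST1H3G is not shown to lack a TATA box.

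Nuclear architecture genes had 19 lower and 4 higher members of 43 tested (median -0.25). LMNB1, which encodes the lamin lost in many senescent cells, went from 412 to 52.2 mean normalized counts, at -2.75 ± 0.18 in the authors' deposited table (adjusted p = 4.19e-51); the shLuc means went from 1403 to 170.0. LMNB2 was at -1.13 ± 0.14, the lamina-associated TMPO at -1.55 ± 0.14, the chromatin protein HMGB2 at -1.59 ± 0.12, the histone methyltransferase SUV39H1 at -1.29 ± 0.20 and the histone chaperone ASF1B at -3.66 ± 0.25, all lower. LMNA at -0.25 ± 0.14 and HMGA1 at 0.15 ± 0.10 did not pass, and HMGA2 rose by 0.47 ± 0.11.

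**Figure D3:**
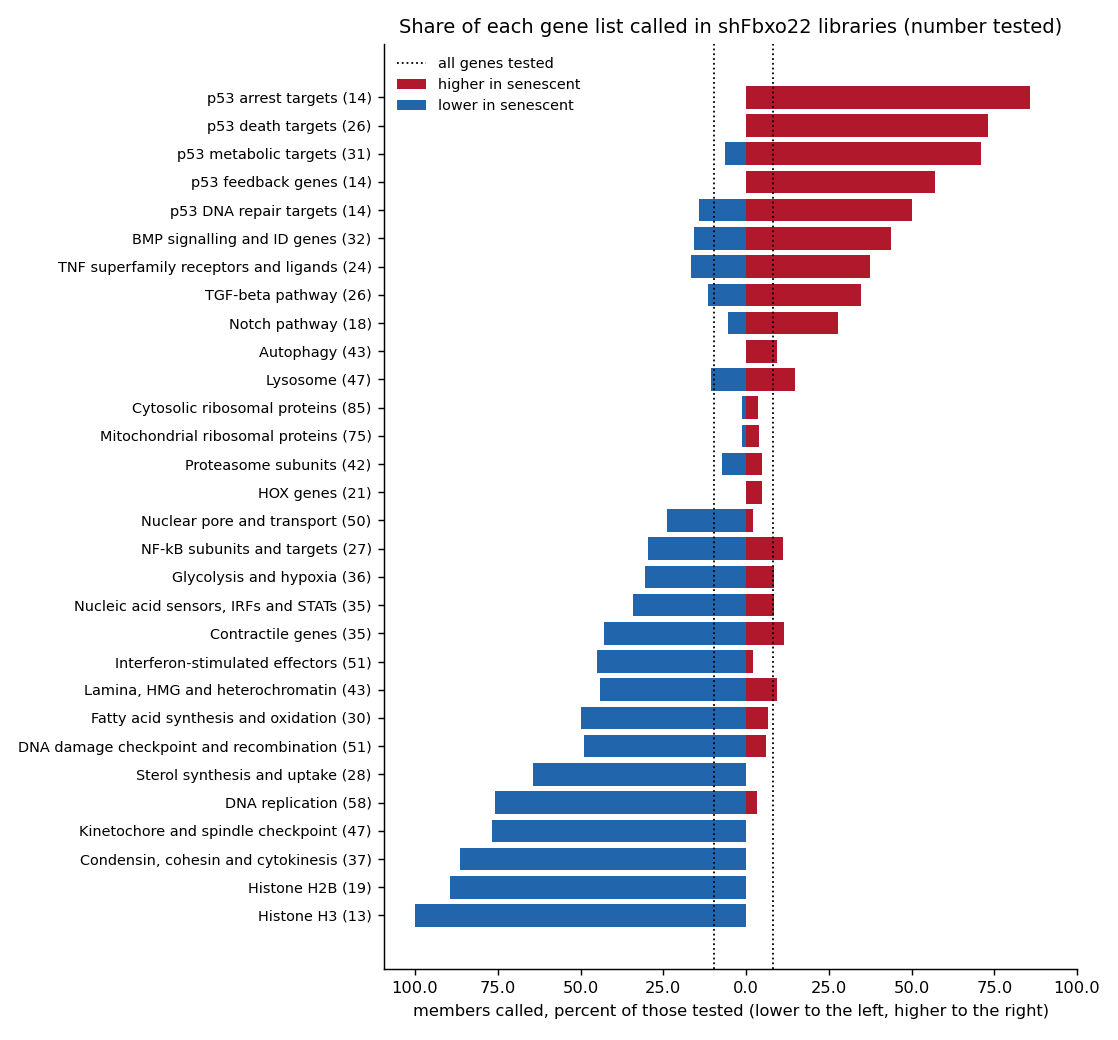
Percent of the tested members of 30 gene lists (number tested in brackets) called higher (red, to the right) or lower (blue, to the left) in shFbxo22 libraries; dotted lines mark the shares over all genes tested, 8.16% higher and 9.57% lower. The 5 p53 lists lie at the top, mitotic, replication and histone lists at the bottom, and ribosomal and proteasome lists lie inside both dotted lines.

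The ID genes and other genes of BMP signalling were examined next. ID proteins are helix-loop-helix factors that block differentiation factors and are induced by BMP receptors through SMAD1, SMAD5 and SMAD9. All 4 ID genes rose: ID1 went from 269 to 2432 mean normalized counts and ID3 from 658 to 5585 with shFbxo22, whereas shLuc libraries went from 2138 to 345 and from 4562 to 839. Libraries labelled shFbxo22 senescent thus had ID1 and ID3 levels near those of young shLuc libraries, and libraries labelled shFbxo22 young had levels near those of senescent shLuc libraries. In the authors' deposited table ID1 was at 3.04 ± 0.13 (adjusted p = 2.56e-116), ID3 at 2.97 ± 0.12, ID2 at 1.76 ± 0.10 and ID4 at 2.05 ± 0.29. The inhibitory SMAD6 at 0.75 ± 0.14 and SMAD7 at 1.17 ± 0.11, the BMP antagonist NOG at 2.09 ± 0.31 and the helix-loop-helix gene ATOH8 at 1.76 ± 0.14 rose with them, as did the signal transducer SMAD9 at 1.61 ± 0.12. Of 32 BMP and ID genes 14 rose and 5 fell (median 0.19), so the list as a whole was mixed. Ligands split, with BMP2 at 0.86 ± 0.22 higher and BMP4 at -0.84 ± 0.14 and GDF5 at -0.73 ± 0.13 lower, and the receptor ACVRL1 fell at -1.05 ± 0.11. The antagonist GREM1 at -0.52 ± 0.11 fell, and FST at 0.058 ± 0.10 did not pass.

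The TGF-beta list held 9 rises and 3 falls among 26 tested genes (median 0.16). Targets and ligands rose, with the feedback inhibitor PMEPA1 at 1.55 ± 0.16, the activin subunit INHBA at 1.17 ± 0.12 and TGFB1 at 0.58 ± 0.13 in the authors' deposited table. The receptors TGFBR1 at 0.024 ± 0.10 and TGFBR2 at 0.19 ± 0.089 did not pass, and the co-receptor TGFBR3 at -0.36 ± 0.11 fell. Latency proteins split: LRRC32 at -0.72 ± 0.12 and LTBP4 at -0.70 ± 0.16 fell, LTBP2 rose and LTBP1 did not pass. Of 18 Notch genes 5 rose and 1 fell. The receptors NOTCH1 at 1.05 ± 0.17 and NOTCH3 at 1.11 ± 0.14 were higher. So were the weakly expressed targets HES1 at 1.42 ± 0.24 (base mean 63.2) and HEY1 at 1.22 ± 0.33 (base mean 13.2). NOTCH2 at -0.26 ± 0.086 was lower, and the ligand JAG1 at -0.0058 ± 0.12 did not pass. Of 32 WNT genes 7 fell and 3 rose, with the ligands WNT2 at -1.59 ± 0.14 and WNT2B at -1.27 ± 0.18 and the target AXIN2 at -1.46 ± 0.22 lower and the antagonist DKK1 at 0.81 ± 0.093 higher. CTNNB1, which encodes beta-catenin, did not pass at 0.039 ± 0.094.

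**Figure D4:**
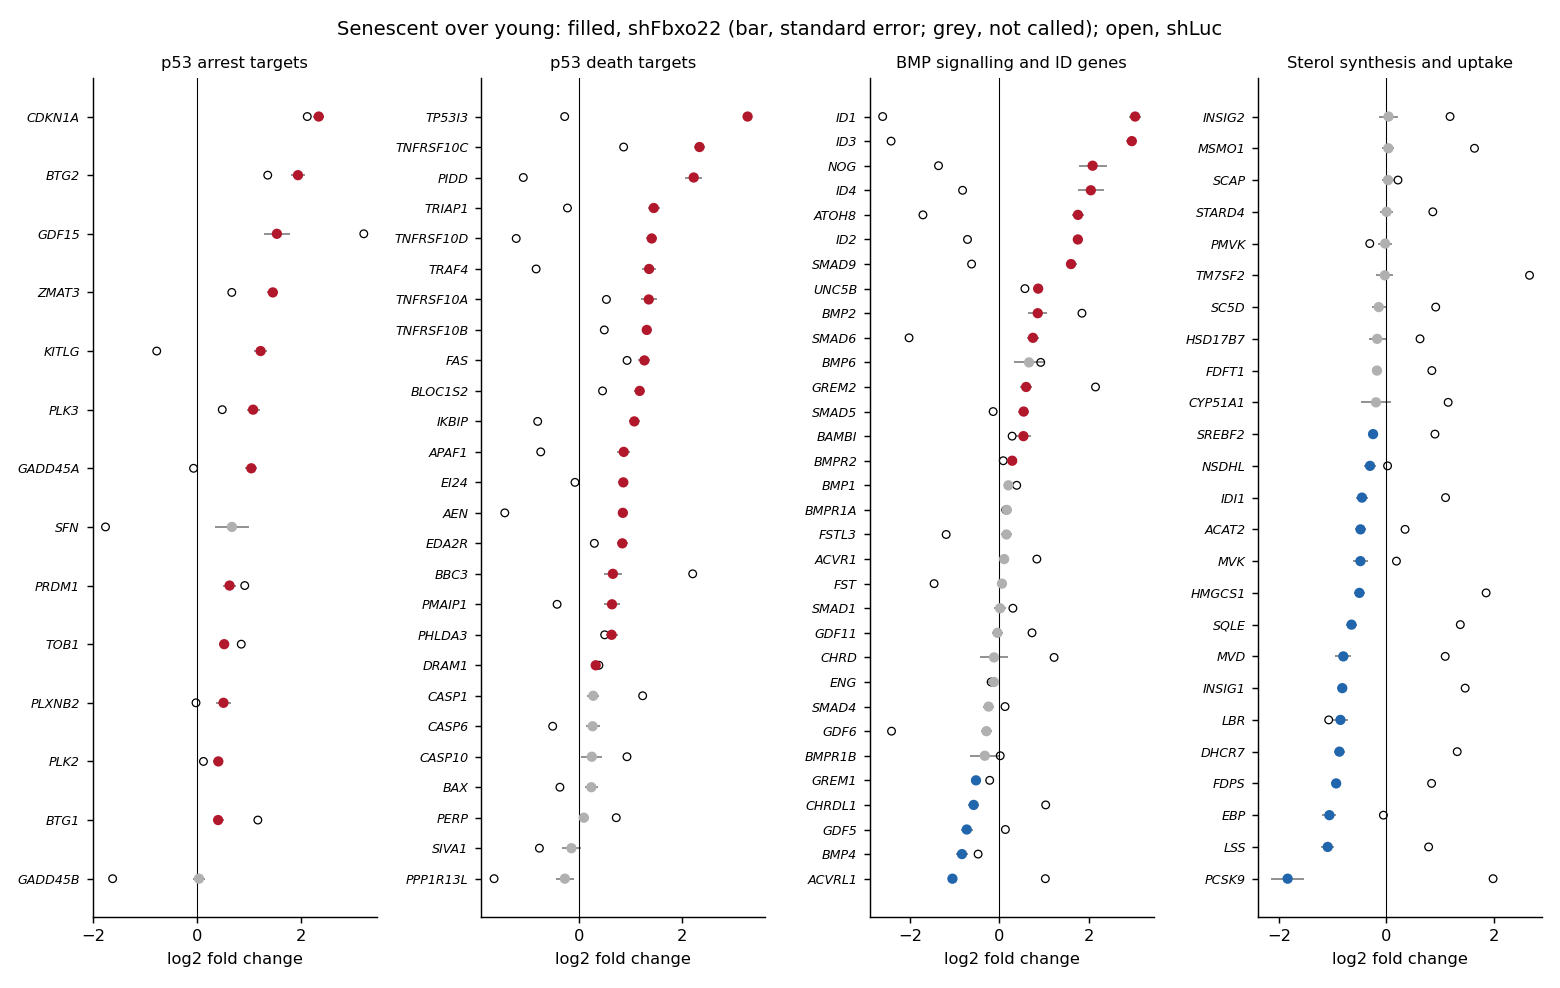
Log2 fold change, senescent over young, of tested members of 4 gene lists; filled points are shFbxo22 (red called higher, blue called lower, grey not called; bars are the authors' standard error) and open circles the shLuc value of the same gene. Filled points lie right of 0 for most p53 targets and left of 0 for most sterol genes, and ID1 to ID4 lie right of 0 with shFbxo22 and left of 0 with shLuc.

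Secreted inflammatory factors, the senescence-associated secretory phenotype of many senescent cells, did not rise as a group. Of 12 tested chemokines 1 rose, CXCL14 at 0.78 ± 0.13, and 3 fell. The latter were CXCL12 at -0.73 ± 0.10, CXCL1 at -0.91 ± 0.21 and CXCL6 at -1.01 ± 0.33 (base mean 14.1). IL8 at 0.10 ± 0.29 and CCL2 at -0.0049 ± 0.15 missed the threshold in the authors' deposited table. Of 21 interleukin genes 7 were higher and 5 lower. The upstream cytokines IL1A at 0.90 ± 0.26 and IL1B at 0.92 ± 0.21, IL11 at 1.11 ± 0.22, IL33 at 0.98 ± 0.29 and LIF at 0.63 ± 0.13 were higher. IL6 at -0.73 ± 0.12, the IL1 antagonist IL1RN at -0.87 ± 0.29 and the receptor IL1R1 at -0.51 ± 0.09 were lower. Base means were under 100 for IL1A, IL1B, IL11, IL33 and IL1RN. Group means of IL6 went from 622 to 370.3 with shFbxo22 and from 221 to 707 with shLuc. NF-kB genes had 8 lower and 3 higher members of 27 tested: the adhesion molecule ICAM1 was at -1.24 ± 0.10, TNFAIP6 at -0.98 ± 0.19 and the mitochondrial dismutase SOD2 at -0.82 ± 0.10, all lower, the sensor TLR3 rose by 0.89 ± 0.16, and RELA at -0.20 ± 0.11 did not pass. IGF binding proteins went both ways, with IGFBP3 at 0.58 ± 0.09 and IGFBP7 at 0.49 ± 0.11 higher and IGFBP5 at -1.06 ± 0.11 and IGFBP4 at -0.31 ± 0.10 lower. The growth factor list had 7 higher and 9 lower members of 30 tested. FGF2 at 1.03 ± 0.12, the EGF-family ligand NRG1 at 1.01 ± 0.10 and VEGFC at 0.64 ± 0.092 rose. The ligands VEGFA, FGF5 and PDGFD fell by 0.55 ± 0.12, 0.63 ± 0.12 and 0.95 ± 0.25. The PDGF receptors PDGFRA at -0.88 ± 0.09 and PDGFRB at -0.76 ± 0.093 fell as well.

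Interferon-stimulated effectors had 23 lower and 1 higher members of 51 tested (median -0.34). The oligoadenylate synthetases OAS1 at -1.25 ± 0.14 and OAS3 at -1.18 ± 0.10 and the antiviral GTPases MX1 at -0.95 ± 0.10, MX2 at -1.07 ± 0.12 and GBP2 at -1.18 ± 0.19 were lower in the authors' deposited table. OAS1 went from 469 to 188 mean normalized counts with shFbxo22 and from 166 to 1572 with shLuc. TRIM22, which is also a p53 target, was the member that rose, at 0.70 ± 0.092. IFI6 at -0.045 ± 0.093 and IFIT1 at -0.10 ± 0.10, both well expressed, did not pass. Of 35 nucleic acid sensors, IRFs and STATs 12 fell and 3 rose, with the cytokine brake SOCS1 at -1.48 ± 0.23 and the RNA sensor IFIH1 at -0.57 ± 0.14 lower and STAT4 at 0.97 ± 0.18 higher. Antigen presentation genes showed 6 falls and 4 rises of 28: the immunoproteasome genes PSMB8 at -0.48 ± 0.11 and PSMB9 at -1.10 ± 0.16 and HLA-E at -0.45 ± 0.10 were lower, and the NKG2D ligands ULBP1 at 1.26 ± 0.22 and ULBP2 at 0.53 ± 0.19 were higher. HLA-B at -0.05 ± 0.10 and B2M at 0.058 ± 0.10 did not pass.

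Lipid genes were described by pathway. Sterol synthesis and uptake genes, targets of the transcription factor SREBF2, fell in 18 of 28 cases with no rise (median -0.47). LSS, which closes the sterol rings, was at -1.09 ± 0.12, the isoprenoid enzyme FDPS at -0.94 ± 0.10 and DHCR7, which acts in the last steps of cholesterol synthesis, at -0.88 ± 0.11 in the authors' deposited table. FDPS went from 4860.1 to 2511 mean normalized counts with shFbxo22 and from 2578 to 4639 with shLuc. FDFT1 at -0.18 ± 0.10 and MSMO1 at 0.035 ± 0.11 did not pass. Genes of LXR and cholesterol efflux fell in 7 of 16 cases with no rise, among them the receptor NR1H3 at -0.90 ± 0.14 and SREBF1 at -0.96 ± 0.13, while the exporter ABCA1 did not pass at 0.048 ± 0.10. Fatty acid genes had 15 lower and 2 higher members of 30 tested. The carrier FABP3 was at -2.56 ± 0.13, from 2112 to 333 mean normalized counts with shFbxo22 and from 310.4 to 2377 with shLuc, the desaturases SCD at -1.26 ± 0.10 and FADS2 at -0.80 ± 0.091 fell, and SCD5 rose by 0.69 ± 0.13. Sphingolipid enzymes had 5 higher and 4 lower members of 27 tested (median -0.074), with ACER2, given above, as the largest rise and the sphingosine kinase SPHK1 at 0.60 ± 0.15 higher.

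Stress and degradation lists lay at varying distances from the background of 8.16% higher and 9.57% lower. The share called higher was 9.30% for autophagy, 14.9% for lysosome, 19.5% for NRF2 and 20.6% for ATF4 and unfolded protein genes. The share called lower was 10.6% for lysosome, 12.2% for NRF2, 11.8% for ATF4 and 30.6% for glycolysis and hypoxia genes. Of 47 lysosome genes 7 rose and 5 fell (median -0.008), with the fucosidase FUCA1 at 0.99 ± 0.11 and the protease CTSL at -0.93 ± 0.11 at the ends, and CTSB at -0.14 ± 0.088 and CTSK at -0.25 ± 0.10 did not pass. Of 43 autophagy genes 4 rose and none fell, led by the protease ATG4A at 0.66 ± 0.14. Of 34 ATF4 and unfolded protein genes 7 rose and 4 fell, with SESN2, also a p53 target, at 0.98 ± 0.11, the chaperone HSP90B1 at 0.38 ± 0.11, the serine enzyme PHGDH at -0.57 ± 0.11 and TRIB3 at -0.41 ± 0.11 in the authors' deposited table. Of 41 NRF2 and glutathione genes 8 rose and 5 fell, with the peroxidase GPX1 higher (from 3119.9 to 6456 mean normalized counts), HMOX1 at 0.57 ± 0.10 and GPX4 at -0.54 ± 0.11, and NQO1 at 0.19 ± 0.11 did not pass. The ferritin genes FTH1 at 0.23 ± 0.12 and FTL at 0.14 ± 0.13 did not pass, while the iron-sulphur scaffold ISCU rose by 1.10 ± 0.12 and the zinc importer SLC39A8 fell at -1.20 ± 0.17. Glycolysis and hypoxia genes had 11 lower and 3 higher members of 36 tested, with the glucose transporter SLC2A1 at -0.60 ± 0.11 and ENO1 at -0.52 ± 0.087 lower and GAPDH at -0.078 ± 0.10 and PKM at 0.025 ± 0.093 not passing.

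Contractile genes had 15 lower and 4 higher members of 35 tested (median -0.24). Calponin CNN1 was at -0.89 ± 0.13 and vinculin VCL at -0.71 ± 0.083, lower, and the cardiac actin ACTC1 at 1.68 ± 0.22 and tropomyosin TPM1 at 0.26 ± 0.092, higher. ACTB went from 127018 to 94652 mean normalized counts with shFbxo22 and from 125211 to 28020.2 with shLuc. Of 33 YAP pathway genes 7 rose and 4 fell, with the targets ANKRD1 at 1.26 ± 0.14 and CTGF at 0.45 ± 0.12 higher, tissue factor F3 at -0.67 ± 0.10 lower and CRIM1 at 0.025 ± 0.087 not passing in the authors' deposited table. Matrix genes were mixed. The fibrillar collagens COL1A1 at 0.19 ± 0.14 and COL1A2 at 0.029 ± 0.14 did not pass, COL3A1 at -0.51 ± 0.11 and COL5A3 at -1.29 ± 0.13 fell, and the basement membrane chain COL4A5 at 1.35 ± 0.23 and the anchoring fibril chain COL7A1 at 0.79 ± 0.15 rose. Proteoglycan genes showed 8 rises and 7 falls of 26: versican VCAN at 2.03 ± 0.13, glypican GPC1 at 1.18 ± 0.15 and syndecan SDC1 at 0.96 ± 0.11 were higher, and PRELP at -1.39 ± 0.13, aggrecan ACAN at -1.04 ± 0.12 and decorin DCN at -0.38 ± 0.11 lower. Elastin ELN rose by 1.01 ± 0.14 and the protease inhibitor TIMP3 by 1.26 ± 0.089, while the proteases MMP2 at 0.081 ± 0.09 and MMP14 at 0.13 ± 0.094 did not pass. Integrin and laminin genes had 6 higher and 3 lower members of 29 tested. The integrins ITGA2 at 0.88 ± 0.12, ITGA3 at 0.68 ± 0.12 and ITGA6 at 0.59 ± 0.12 rose, and ITGA4 fell by 0.35 ± 0.10. ITGA5 and the common partner ITGB1, the latter at 0.24 ± 0.10, did not pass.

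Genes of the general cell machinery are given as counts. Of 85 cytosolic ribosomal protein genes 3 rose and 1 fell, and the largest rise was that of RPS27L, a p53 target, at 0.78 ± 0.10. Of 75 mitochondrial ribosomal genes 3 rose and 1 fell, of 86 nuclear respiratory chain genes 7 rose and none fell, and of 42 proteasome genes 2 rose and 3 fell. Among the 13 mitochondrial genome transcripts MT-CO1 rose, at 0.30 ± 0.10, and the others did not pass. Splicing factor genes had 21 lower and 1 higher members of 125 tested, and nuclear pore and transport genes fell in 12 of 50 and rose in 1, led by the importin KPNA2 at -1.73 ± 0.10 in the authors' deposited table. Of the genes that mark body position, 20 of 21 tested HOX genes did not pass, and HOXC13, at 2.46 ± 0.26 and a base mean of 60.6, rose.

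The labelled cell type was checked with its markers. All 17 fibroblast markers were tested, with base means up to 235214 for FN1 and 207373 for VIM; FN1 at 0.56 ± 0.10 and FAP at 0.40 ± 0.12 rose, and 6 fell, among them DCN, LUM at -0.30 ± 0.10 and THY1 at -0.46 ± 0.10. Of other cell types, 4 of 14 keratinocyte, 3 of 8 melanocyte, 2 of 8 endothelial, 4 of 11 leukocyte and 1 of 6 adipocyte markers reached the test. Those tested with base means under 100 were CDH1 (base mean 27.5), KRT10 (44.2), KRT15 (36.1), PMEL (32.3), VWF (48.9), TEK (91.4), CD14 (34.3), PTPRC (13.4), CD68 (16.1), CD74 (15.1) and FABP4 (22.7). The melanocyte regulator MITF, at a base mean of 1156, did not pass at 0.12 ± 0.12. The desmosomal gene DSP, which fibroblasts can also express, rose by 0.47 ± 0.095, and KIT at -1.12 ± 0.12, TEK at -0.98 ± 0.21 and VWF at -0.96 ± 0.27 fell. The part of other cells in the results was not tested, and in bulk RNA fewer cells of a type and less RNA per cell cannot be told apart.

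Among named long noncoding RNAs 11 of 41 rose and 3 fell. LINC01021 (PURPL), a p53-induced RNA, was at 1.84 ± 0.32, TP53TG1 at 1.29 ± 0.14 and the abundant nuclear RNA MALAT1 at 0.39 ± 0.12 in the authors' deposited table, and MEG3 at -0.35 ± 0.12 fell. The signal recognition particle RNA RN7SL1 at 0.26 ± 0.26 and the RNase MRP RNA RMRP at 0.22 ± 0.12 did not pass. A p53 response element (its consensus pair of half-sites with at most 3 bases between them; the motif reads the same on both strands) was found in the promoter windows of 3 of 11077 genes, and all 3 were called higher: LINC01021, DDB2 and PTCHD4, the last at 0.80 ± 0.27. The sites are shown with half-sites in capitals because their letters match the known binding sequence of p53.

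LINC01021 (chr5:27472165-27472184, strand +, GRCh38.p14): GGGCTTGTCTGGGCATGCCC
DDB2 (chr11:47214979-47214999, strand +, GRCh38.p14): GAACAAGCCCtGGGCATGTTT
PTCHD4 (chr6:48111198-48111217, strand −, GRCh38.p14): AGGCTTGCCCAGACTTGCCC

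The first base of the site lay 127 bases before the start in LINC01021, 20 bases before it in PTCHD4, and at base 6 of the transcript in DDB2. No such pair was in the windows of CDKN1A, MDM2 or TP53I3, which says only that these letters are not in these windows.

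Genes with large base means, which reflect transcript length as well as abundance, changed as follows. FN1, which encodes fibronectin, went from 188048 to 281434 mean normalized counts and TGFBI, a TGF-beta-induced matrix protein, from 52009.6 to 78737. The laminin chain LAMC1 went from 30782 to 41822. Of the genes called lower, GREM1 went from 77844 to 53735 and IGFBP5 from 66382 to 31196. KIAA1199, a hyaluronan-binding protein gene, went from 57128 to 23197 at -1.28 ± 0.094 in the authors' deposited table. The log2 fold change of LAMC1 was 0.43 ± 0.083, that of FN1 0.56 ± 0.10 and that of TGFBI 0.58 ± 0.10.

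The response was then set against that of shLuc cells, in a table that shares no library with it. With shLuc, 4651 of 21889 genes tested were higher (21.2%) and 4670 lower (21.3%). Of the genes higher with shFbxo22, 1480 were tested with both hairpins. Among these, 491 were also higher with shLuc (33.2%, and 10.9% of the 4498 genes higher with shLuc). Another 381 were lower (25.7%) and 608 were not called (41.1%). Of the 1791 genes lower with shFbxo22, 851 were also lower with shLuc (47.5%, and 18.8% of 4533). Another 606 were higher (33.8%) and 334 were not called (18.6%). Over all 18598 genes tested with both hairpins, 4498 were higher and 4533 lower with shLuc. Among the 15327 not called with shFbxo22, 22.2% were higher and 21.5% lower with shLuc. In all, 987 genes were called in opposite directions with the 2 hairpins. The difference of the responses was the shFbxo22 value minus the shLuc value. It was divided by the square root of the sum of both squared standard errors and read as a normal z, 2-sided. The p-value was adjusted by Benjamini-Hochberg across the 18598 genes tested in both tables. The difference was called for 3505 genes in the higher direction (18.8%) and 3368 in the lower (18.1%). The 987 were among them, which calls of opposite sign in both tables nearly fix in advance.

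ANKRD1, a muscle-type repressor and YAP target, had the largest difference among genes whose base mean reached 100 in both tables, 6.71 ± 0.39 (adjusted p = 4.91e-65), with means of 262, 4.55, 304 and 761 in shLuc young, shLuc senescent, shFbxo22 young and shFbxo22 senescent libraries. ID1 followed with 5.66 ± 0.18 and ID3 with 5.39 ± 0.17. The keratin gene KRT7, at 4.23 ± 0.17, went from 5044 to 456 with shLuc and from 2819 to 4996 with shFbxo22. The oxytocin receptor OXTR, at 4.13 ± 0.15, fell with both hairpins but by 0.36 with shFbxo22 against 4.49 with shLuc. In the other direction COL15A1, a basement membrane collagen, had -5.82 ± 0.26 (adjusted p = 1.25e-109), from 50.9 to 1118 with shLuc and from 175 to 58.1 with shFbxo22. FABP3 had -5.48 ± 0.17, the scavenger receptor COLEC12 -4.49 ± 0.16 and the plexin PLXNC1 -4.47 ± 0.14. The metalloprotease MMP11, at -4.16 ± 0.19, rose with shLuc, from 156 to 3279, and did not pass with shFbxo22 at 0.20 ± 0.14.

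By list, the difference was called in the lower direction for 48 of 51 interferon effectors, 24 of 28 sterol genes and 31 of 47 lysosome genes, whose shLuc medians were 1.36, 0.88 and 0.85 and whose shFbxo22 medians were -0.34, -0.47 and -0.008. It was called in the higher direction for 19 of 26 p53 death targets, whose medians were -0.15 with shLuc and 0.86 with shFbxo22, and for 28 of 35 contractile genes, at -1.14 and -0.24. Mitotic genes fell with both hairpins, yet the difference was called higher for 32 of 47 kinetochore genes and 36 of 58 replication genes. In deposited values these fell less with shFbxo22 (medians -1.67 and -0.99) than with shLuc (-2.75 and -1.90). Deposited values are drawn towards 0 more strongly with shFbxo22 than with shLuc (largest standard errors 0.33 and 0.70). The part of this moderation in the medians was not tested. With it taken out of both tables, the difference was called higher for 3309 genes and lower for 3239. In the deposited young comparison, which shares the libraries labelled shFbxo22 young, 18.7% of all 20082 genes tested were higher and 17.3% lower with shFbxo22 than with shLuc. Lower there were 47 of 47 kinetochore and 55 of 58 replication genes. Higher there were 23 of 28 sterol, 33 of 47 lysosome, 26 of 51 interferon genes, of which 8 others were lower, and 19 of 26 p53 death genes, and 14 of 35 contractile genes were lower. The difference between the senescence responses of the hairpins was called for H3 histones as follows: 3 of 13 were called lower and 4 higher, and HIST1H3G had -2.21 ± 0.25 (adjusted p = 1.22e-17). For CDKN1A the difference, 0.22 ± 0.14, did not pass (adjusted p = 0.22), nor did that of MKI67, -0.23 ± 0.16 (adjusted p = 0.283), or LMNB1, 0.28 ± 0.21 (adjusted p = 0.335).

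**Figure D5:**
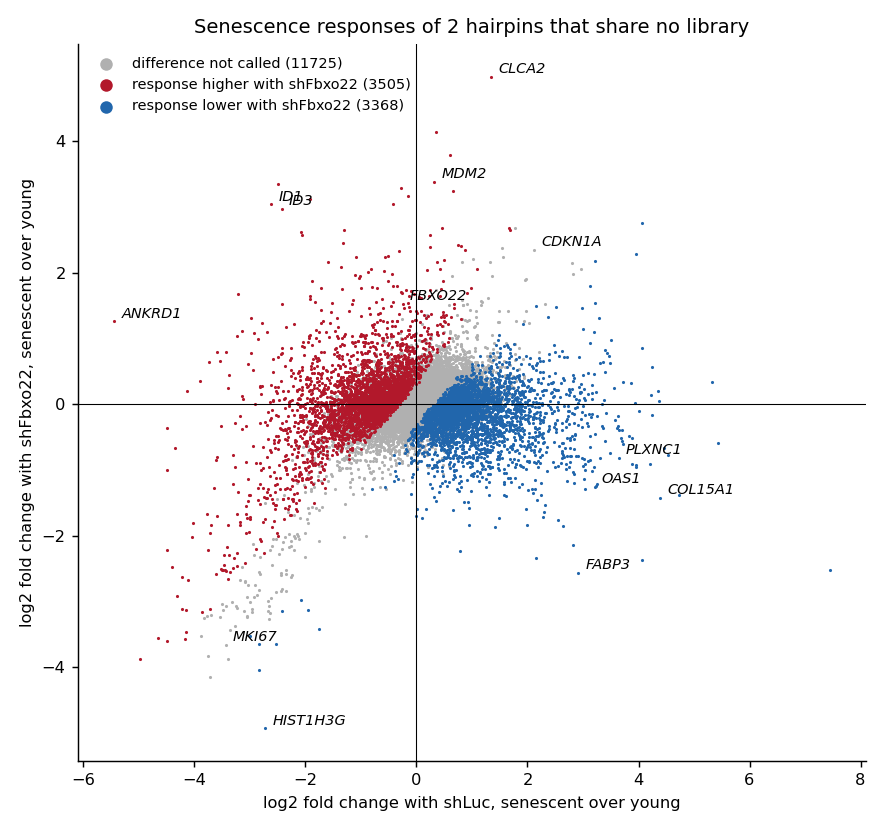
Log2 fold change, senescent over young, with shFbxo22 (vertical axis) against shLuc (horizontal axis) for the 18598 genes tested with both hairpins; red points were called for a higher response with shFbxo22 (3505), blue points for a lower one (3368). The vertical spread is smaller than the horizontal one, ID1, ID3 and ANKRD1 lie at upper left, COL15A1, FABP3 and OAS1 at lower right, and MKI67 and HIST1H3G fall with both hairpins.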

How the data were processed

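RNA from 12 libraries of HCA2 fibroblasts (3 in each of 4 groups) was extracted with RNeasy and made into libraries with an Ion Total RNA-Seq kit, per the labels' protocols. Bowtie2 2.0.0, STAR 2.3.0, DESeq2 1.14.1, R 3.2.2 and the hg19 (GRCh37) build are named, per the submitters' processing notes, which give no settings, annotation or order of use. The data were 4 tables in which the authors compared pairs of groups, each of 6 libraries and 55765 rows, 28 of them with a date in place of a symbol, which were left out. Per the file headers, each deposited row held a base mean, a signal that averages normalized counts over the 6 libraries, a log2 fold change with its standard error, a Wald statistic (a score, fold change over standard error), a p-value and an adjusted p-value. The deposited fold changes behaved as moderated towards 0, since their standard errors had a ceiling and the estimates of one group mean from different tables met more closely with the moderation taken out (0.0069 apart on the log2 scale against 0.0102), so they understate the change of weakly expressed genes. No column gave a value for one library, so depth per library and the spread between replicates could not be seen, and no model was refitted.

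The sign of each table was settled by solving group means from base mean and fold change under all 16 sign choices: over 9109 genes with base means of 200 or more in every table, estimates of one group from its pair of tables lay 0.0092 apart on the log2 scale under the best choice and 0.13 under the next. Group means are printed where both estimates met within 0.2. The responses of both hairpins were compared gene by gene with their deposited standard errors, a calculation tested on simulated data. The members and the 84 gene lists were chosen with earlier results of these data known. Named genes were FBXO22, CDKN1A, MDM2, MKI67 and LMNB1, the 20 largest called changes in each direction with a base mean of at least 100, up to 6 called members in each direction and up to 4 uncalled members of highest base mean in each list, the 15 largest differences between hairpins in each direction that were called with and without the moderation, and the 10 called genes of highest base mean in each direction. Promoter windows came from RefSeq by symbol. A few genes of the rule above are not reported here. Calculations used Python 3.11.15, numpy 2.4.6, pandas 2.3.3, scipy 1.17.1 and matplotlib 3.10.9. The alternatives tried were another threshold, filter, centring, fold minimum and treatment of the moderation.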

Additional observations from a re-analysis of the deposited data

Results flagged for a closer look

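Results in this section stand out because the response to radiation differed between the hairpins, by the test of the difference itself that is given above (adjusted p under 0.05). The response was higher with shFbxo22 for 3505 genes and lower for 3368 of 18598. FBXO22, the gene the hairpin is aimed at, differed by 1.77 ± 0.19 (adjusted p = 2.03e-18), up with shFbxo22 and not called with shLuc. The values that follow are shFbxo22 minus shLuc log2 fold changes.

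Among the 15 largest differences in the higher direction were cytoskeletal and YAP-linked genes, with ANKRD1 at 6.71 and CTGF at 3.82. The BMP-induced ID1 was at 5.66 and ID3 at 5.39. The protease inhibitor SERPINB7 was at 4.39 and the keratin KRT7 at 4.23. Receptors and surface proteins were OXTR at 4.13, the ephrin receptor EPHA2 at 4.02, the interleukin receptor IL7R at 4.26 and podocalyxin PODXL at 3.78. Regulators were SAMD11 at 4.70, MYBL1 at 3.76 and E2F7 at 3.76, and the noncoding RNA LINC01085 was at 4.38. Between the hairpins in young libraries ANKRD1 was at 0.20 ± 0.16, which was not called, EPHA2 at -0.57 ± 0.13, IL7R at -0.92 ± 0.11 and SAMD11 at -3.52 ± 0.22 in the deposited shFbxo22 over shLuc comparison, which shares those libraries.

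In the lower direction the matrix and surface genes were COL15A1 at -5.82, MMP11 at -4.16, COLEC12 at -4.49, PLXNC1 at -4.47 and podoplanin PDPN at -4.12. Periplakin PPL was at -4.96, the membrane-bending factor MTSS1 at -4.15, and dermokine DMKN at -4.79. The fatty acid carrier FABP3 was at -5.48 and the antiviral OAS1 at -4.46. The others were FAM65C at -4.91, the Golgi protein gene FAM20A at -4.88, the orphan receptor GPRC5B at -4.32, TMEM132B at -4.32 and the zinc finger gene TSHZ2 at -4.10. The part of the young difference in these values was not tested.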

How the results depend on the processing

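The sign of the table was the same with base mean minima of 50 and of 1000. The counts of 1530 genes higher and 1795 lower stayed within 1.5 times under 4 alternatives, from 1065 and 1275 at an adjusted p of 0.01 to 1542 higher with fold changes centred on the median and 1780 lower in that setting, and the share of calls that were higher lay between 44.1% and 46.5% throughout. With an absolute log2 fold change of at least 1 required, 332 were higher and 406 lower, and 409 and 519 once the moderation was taken out first (chosen after seeing the data). The difference of responses counted between 2683 and 3598 genes against 3505 on the higher side and between 2655 and 3272 against 3368 on the lower side. Of 939 named genes tested, none reversed. Thresholds and filters reuse the same fold change, so its sign could not change there. At 0.01, 838 kept their side of the threshold, and these include uncalled genes, which could not change side. With no filter on low values 894 kept it, and with centring 937. Of 168 list counts, 134 stayed within 1.5 times at 0.01 and 159 with no filter. With the absolute log2 fold change of at least 1, 397 named genes lost their call and 128 list counts fell by over 1.5 times. The fold recomputed from the other 3 tables lay within 1 standard error for 807 of 934 named genes. Those tables hold the same shFbxo22 libraries, so this is no independent repeat. The fold moved by a median of 0.025 and at most by 4.51 on the log2 scale, for HIST2H3C. That of E2F2, at -3.13 as deposited, was at -6.67 there. The fold of PDE4C was 5.91 as deposited and 7.67 there, and that of HIST1H2AI was -3.14 and -6.80. No paired analysis was possible because the tables hold no value for each library, and leaving out each replicate was not run for the same reason. The planned removal of the moderation with the largest standard error as prior SD was not run for these calls, since that error equals only a part of the prior SD and the Wald statistic does not change with it. Genes with a base mean under 30 had a median standard error of 0.33, which limits what could be called there.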

Other observations

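Other gene families are given from the authors' deposited table beside the background of 8.16% higher and 9.57% lower. The shares of zinc finger and F-box genes that were higher lay near that background. Of 484 zinc finger genes 44 were higher and 11 lower: ZNF423, a cofactor of BMP SMADs, was at 1.54 ± 0.22, ZNF540 at 1.51 ± 0.32 and ZNF667 at 1.42 ± 0.16, and the cell cycle gene ZNF367 was at -2.64 ± 0.25, lower. Axon guidance genes, which also steer fibroblast adhesion, had 13 higher and 10 lower members of 51. The ephrin receptors EPHA2 at 1.08 ± 0.13 and EPHA4 at 1.07 ± 0.10 and the ligand EFNB1 at 1.52 ± 0.14 rose, and the ligand EFNB3 at -0.90 ± 0.17, the receptor EPHB6 at -1.41 ± 0.22 and the SLIT receptor ROBO2 at -1.71 ± 0.17 fell. With shLuc, EPHA2 was at -2.94 ± 0.13 and ROBO2 at 2.27 ± 0.51. Of 47 mesenchymal transcription factors 12 fell and 5 rose, with TWIST2 at -0.81 ± 0.13, NFIB at -0.87 ± 0.21 and MAF at -0.89 ± 0.10 lower and SOX4 higher (from 525 to 1526 mean normalized counts), while PRRX1 at -0.11 ± 0.092 and ZEB2 at 0.028 ± 0.10 were not called. Solute carriers had 40 lower and 25 higher members of 228: the glutamate transporter SLC1A3 was at -1.02 ± 0.26 and the phosphate transporter SLC20A2 at -1.04 ± 0.11, and the amino acid transporter SLC7A8 rose by 0.90 ± 0.094. Of 33 amino acid metabolism genes 9 fell and 3 rose. The folate enzyme SHMT1 was at -1.26 ± 0.14 and the pyrimidine enzyme CAD at -0.57 ± 0.10. The proline dehydrogenase PRODH, a p53 target, was at 1.71 ± 0.33 (base mean 17.7).

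Of 24 receptors and ligands of the TNF superfamily 9 rose and 4 fell; beside the TRAIL receptors, TNFRSF14 was at 0.91 ± 0.15, and the TNF receptors TNFRSF1A at -0.31 ± 0.10 and TNFRSF1B at -1.22 ± 0.19 were lower. Heat shock genes had 13 higher and 6 lower members of 65, with the mitochondrial co-chaperonin HSPE1 at 0.67 ± 0.16 and DNAJB4 at 0.62 ± 0.13 higher, the constitutive HSPA8 at -0.34 ± 0.10 and the small HSPB3 at -1.26 ± 0.13 lower, and HSP90AA1 at 0.035 ± 0.10 not called. Of 35 immediate early genes 7 rose and 4 fell, the transcription factors EGR1 at 0.70 ± 0.14 and FOSL1 at 0.35 ± 0.11 among the former and KLF6 at -0.68 ± 0.095 and NR4A3 at -0.48 ± 0.17 among the latter. Among 55 F-box genes, the family of FBXO22, 6 rose and 4 fell, with FBXW7, which marks cyclin E for degradation, at 1.02 ± 0.11, FBXO32 at 0.73 ± 0.12 and FBXO5, an S-phase inhibitor of the anaphase-promoting complex, at -1.56 ± 0.19. Of 45 TRIM genes 7 rose and 7 fell, from TRIM47 at -1.84 ± 0.20 to TRIM55 at 1.52 ± 0.14.

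Small nucleolar RNAs, which guide modifications of ribosomal RNA, were looked at after their values had been seen. Of 119 tested SNORD genes (box C/D) 23 were higher with shFbxo22 and the others not called, and 111 had a fold change above 0 (median 0.47). With shLuc 60 were higher (median 0.88). Of 67 SNORA genes (box H/ACA) 7 were higher with shFbxo22 (median 0.29), against 42 with shLuc (median 0.77). By the test of the difference, the response was lower with shFbxo22 for 18 of 119 SNORD genes and higher for 1. It was lower for 12 of 67 SNORA genes and higher for none. Over all 18598 genes tested with both hairpins, 18.1% were lower and 18.8% higher by that test. The 24 tested copies of SNORD116, from the imprinted 15q11 cluster, had 8 higher calls with shFbxo22 and 22 with shLuc. For 9 of these copies the difference was called lower, and all of them count among the SNORD genes. Most of these RNAs lie in introns of host genes and several are near-identical copies, and how shared reads were counted is not given in the sources used here.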
